A study of Sus scrofa with 12 samples.

Results

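A signal from testis to epididymis was followed in boars through 10 of its genes: the ligand NELL2, its receptor ROS1, the receptor's phosphatase PTPN6, the secreted protease OVCH2, the fibroblast growth factor (FGF) receptors FGFR1 and FGFR2, and ETV4, DUSP6, SPRY2 and SPRY4, which the kinase ERK switches on. They were taken by exact gene symbol, and all 10 were found among the 30640 gene rows of the count tables. The samples were testis and epididymis of the Banna mini-pig inbred line, from adult, untreated boars, and the labels name no engineered allele. Each tissue had 5 short-read RNA libraries, numbered 1 to 5, and the animal number in the file headers recurs in both tissues, so a number stands for 1 boar. Age is 12 months by the labels, but 12, 12, 11, 17 and 11 months for boars 1 to 5 by the headers. The labels do not say which part of the epididymis was taken. Values are counts per 1000000 reads of a library (CPM) unless a length is named.

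In rodents, this pathway is called lumicrine because the signal travels in the fluid inside the duct. Germ cells of the testis secrete NELL2, which reaches the first stretch of the epididymis, the initial segment, and binds the receptor tyrosine kinase ROS1 on its epithelium. ROS1 signalling through ERK lets that epithelium differentiate and make secreted proteins, among them OVCH2, an ovochymase needed to process ADAM3 on sperm. PTPN6, also known as SHP-1, removes phosphate from ROS1 and is abundant in leukocytes too. FGF receptors feed the same ERK cascade. ETV4 is a transcription factor induced by ERK, DUSP6 a phosphatase that switches ERK off, and SPRY2 and SPRY4 are Sprouty proteins that dampen receptor tyrosine kinase signalling.

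Library totals were 18715154 to 30211957 reads in testis and 17980578 to 21937263 in epididymis. A count of 0 allows up to 3 reads, or 0.0993 to 0.167 CPM in 1 library, for counting error only. Marker lists separated the tissues as labelled. All 7 epithelial markers tested (EPCAM, CLDN7 and KRT8 the most abundant, ESRP1 among the largest folds) were called higher in epididymis, with summed levels of 1859 to 2986 CPM against 34.2 to 52.0 in testis. So were 8 of 9 smooth muscle and fibroblast markers, led by MYH11, ACTA2 and DES. All 8 haploid germ cell markers (PRM1, OAZ3, TNP2), all 6 meiotic ones (STAG3, DDX4, PIWIL1), all 7 Sertoli cell ones (CLDN11, GATA4, AMH, FSHR) and all 5 Leydig cell ones (CYP17A1, INSL3, CYP11A1) were called higher in testis, where the call of AMH was lost without epididymis replicate 4 (log2 0.63) or 5 (0.64). Of 4 endothelial markers (VWF, PECAM1 and CDH5 the most abundant), 1 was called, higher in epididymis. Testis replicate 4 stood apart with 70.8 CPM of small structural RNAs, against 15043 to 16185 in the other testis libraries. The epididymis libraries had 71.7 to 132 CPM, so testis replicate 4 was like them in this respect. In the other testis libraries this difference in RNA content and the tissue cannot be told apart. Epididymis replicate 3 stood apart too: its haploid germ cell markers summed to 527 CPM against 27.2 to 80.7 in the other epididymis libraries. In bulk tissue, fewer cells of a type and less RNA per cell cannot be told apart.

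Of the 10 genes, 7 were called higher in epididymis and 0 in testis by edgeR's quasi-likelihood test at an adjusted p of 0.05. Among all 17225 genes tested, 37.8% were called higher in epididymis and 36.6% in testis. The count in testis was 0 at an unadjusted p under 0.05 and by DESeq2 too. NELL2 and FGFR1 were tested and not called. OVCH2 did not enter the test because too few libraries passed the filter on low counts. With the boar as a block 5 were called higher in epididymis (35.2% of all genes), and without epididymis replicate 3 there were 6 (37.1% of all genes, and 39.2% higher in testis). A difference beyond 2-fold was called for 5 of them, ROS1, PTPN6, ETV4, DUSP6 and FGFR2, against 23.4% of all genes higher in epididymis and 27.3% in testis by that test. In 4 of the 10, ROS1, PTPN6, DUSP6 and FGFR2, all epididymis libraries lay above all testis libraries, as in 29.3% of all genes. The reverse held for 0 of the 10 and 32.1% of all genes. The median log2 fold change, testis over epididymis, was -2.39 over the 9 tested and -0.07 over all genes.

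**Figure D1:**
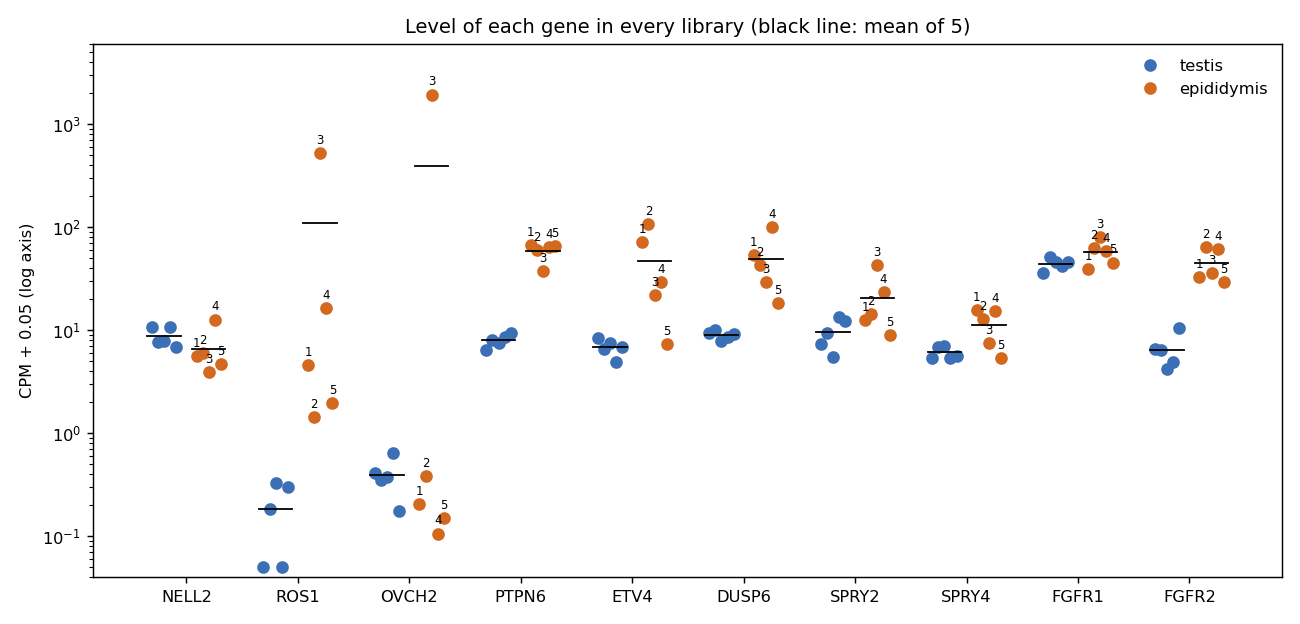
Levels of the 10 genes in every library, as CPM + 0.05 on a log axis, with testis in blue, epididymis in orange, replicate numbers beside the epididymis points and a black line at the mean of 5 libraries. Epididymis replicate 3 reaches 529 CPM of ROS1 and 1938 CPM of OVCH2, far above the other epididymis libraries. The 2 tissues overlap for NELL2, OVCH2, ETV4, SPRY2, SPRY4 and FGFR1.

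The ligand gene did not separate the tissues. NELL2 (chromosome 5, 75505092 to 75837324 of build Sscrofa11.1) had 10.6, 7.65, 7.73, 10.7 and 6.82 CPM in testis replicates 1 to 5 and 5.50, 5.97, 3.87, 12.6 and 4.65 in epididymis replicates 1 to 5. The groups overlapped, because epididymis replicate 4 was the highest of all 10 libraries and the other 4 epididymis libraries lay below every testis library. In 4 of 5 boars the testis value was the higher one. The means were 8.69 ± 1.80 CPM for testis against 6.52 ± 3.50 for epididymis (SD over 5 libraries), a log2 fold change, testis over epididymis, of 0.45 ± 0.31 (SE, edgeR adjusted p = 0.211). Without epididymis replicate 4 the gene was called higher in testis (log2 0.76, edgeR adjusted p = 0.0191), and likewise without epididymis replicates 3 and 4 (log2 0.64, edgeR adjusted p = 0.0370).

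The receptor gene was higher in epididymis in all 5 boars, but its size rested on 1 library. ROS1 (chromosome 1, 44409877 to 44535784) had 0 reads in testis replicates 1 and 4 and 4, 6 and 6 reads in replicates 2, 3 and 5, at most 0.278 CPM. In epididymis replicates 1 to 5 it had 4.48, 1.37, 529, 16.2 and 1.91 CPM. Every epididymis library lay above every testis library, and within the epididymis replicate 3 alone held 95.67% of the summed CPM. The means were 110 ± 234 CPM in epididymis and 0.131 ± 0.131 in testis, an 842-fold difference that became 45.6-fold without replicate 3 (5.99 ± 6.93 CPM, SD, n = 4). Of the remaining 4, replicate 4 was the highest. The log2 fold change was -9.51 ± 2.08 (edgeR adjusted p = 0.00128). It was -5.33 without epididymis replicate 3 (edgeR adjusted p = 1.6e-04), -4.23 without epididymis replicates 3 and 4 (edgeR adjusted p = 3.2e-04) and -7.09 with the boar as a block (edgeR adjusted p = 0.00155). An uncharacterised long noncoding RNA gene of the RefSeq annotation overlaps the span of ROS1, and another that of PTPN6. The strand setting of the counting is not given in the sources used here, so reads of overlapping genes cannot be told apart.

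OVCH2 was read in quantity in a single library. This protease gene (chromosome 9, 1936953 to 1950857) had 1938 CPM in epididymis replicate 3 and 0.153, 0.329, 0.0556 and 0.0979 CPM in epididymis replicates 1, 2, 4 and 5. In testis replicates 1 to 5 it had 7, 9, 7, 11 and 3 reads, or 0.359, 0.298, 0.324, 0.588 and 0.123 CPM, so the other 4 epididymis libraries lay within or below the testis range. Replicate 3 held 99.97% of the epididymis CPM and stood 5898-fold above the next epididymis library. With no filter on low counts the log2 fold change was -10.09 (edgeR adjusted p = 0.0377), a value set by that library. In 3 of 5 boars the testis value was the higher one. The mean over the other 4 epididymis libraries, 0.159 ± 0.120 CPM (SD), was 0.469 times the testis mean of 0.338 ± 0.166. Those 4 held 3, 6, 1 and 2 reads, near the floor of 0.0993 to 0.167 CPM. Boar 5 was counted on 3 against 2 reads, so neither comparison establishes a tissue difference.

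The phosphatase gene of the receptor was higher in epididymis in every library. PTPN6 (chromosome 5, 63762109 to 63779086) had 6.40, 7.98, 7.50, 8.44 and 9.36 CPM in testis replicates 1 to 5 and 67.6, 59.5, 37.6, 64.1 and 65.9 in epididymis replicates 1 to 5. The groups did not overlap, and the lowest epididymis value was that of replicate 3, the library with the most ROS1. The mean was 7.42 times higher in epididymis (58.9 ± 12.3 against 7.94 ± 1.10 CPM), with a log2 fold change of -2.88 ± 0.22 (edgeR adjusted p = 3.6e-07). Of the 7 genes called, PTPN6 and FGFR2 were the only ones to keep the call under every alternative run.

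Leukocyte markers moved with PTPN6 between the tissues. Of 12 tested, 10 were called higher in epididymis and 1 in testis, and the list summed to 68.0 to 86.0 CPM in testis and 232 to 418 in epididymis. No leukocyte marker of the list was at 0 in every library of a tissue. PTPRC, the pan-leukocyte phosphatase CD45, had 10.1 ± 7.29 CPM in epididymis against 1.28 ± 0.451 in testis, and LCP1, CD68 and CSF1R were the most abundant markers. Within the epididymis, replicates 1 to 5 had leukocyte sums of 288, 257, 330, 418 and 232 CPM, beside 67.6, 59.5, 37.6, 64.1 and 65.9 CPM of PTPN6. CD68, a macrophage marker, was lowest in replicate 3 as PTPN6 was, at 20.5 CPM against 38.8 to 123 in the others. The list did not follow it: 6 of the 13 markers were highest in replicate 3, where 31.9% of all tested genes were. CSF1R was among them, at 63.8 CPM. Epithelial markers summed to 2986, 2235, 1859, 2067 and 2367 CPM in replicates 1 to 5. The part of either cell type in the PTPN6 difference was not tested.

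**Figure D2:**
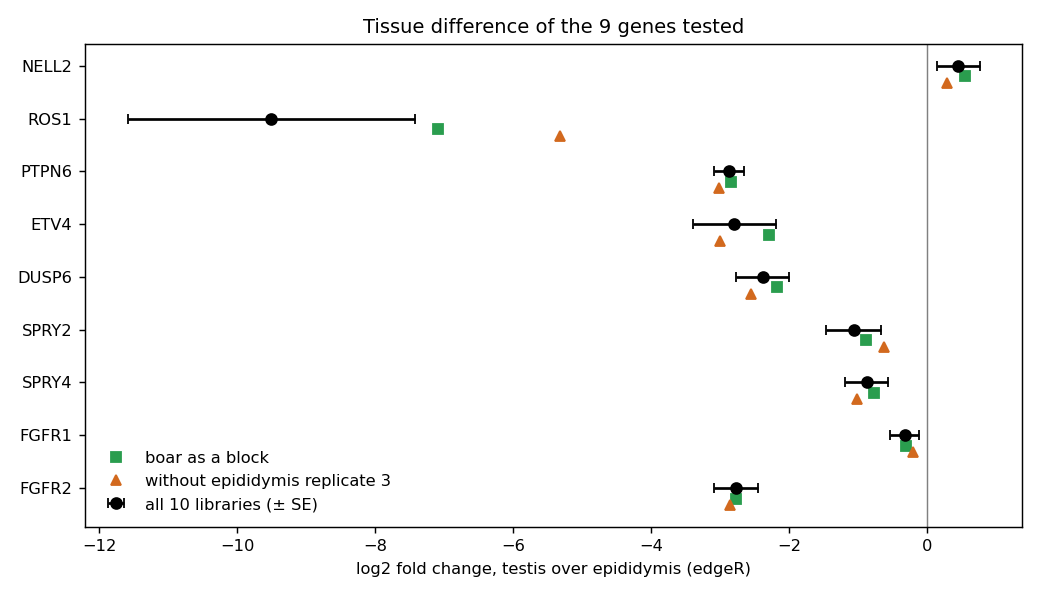
Log2 fold changes, testis over epididymis, of the 9 genes tested by edgeR (black, with SE), with the boar as a block (green squares) and without epididymis replicate 3 (orange triangles). ROS1 moves from -9.51 to -5.33 without that library, while PTPN6, ETV4, DUSP6 and FGFR2 stay near -2 to -3.

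The FGF receptor genes differed in how they were shared between the tissues. FGFR1 (chromosome 15, 48053895 to 48106634) had 35.9, 51.3, 46.0, 41.7 and 46.0 CPM in testis replicates 1 to 5 and 38.9, 62.4, 79.5, 58.0 and 45.2 in epididymis replicates 1 to 5. The groups overlapped, with means of 44.2 ± 5.74 and 56.8 ± 15.8 CPM, and the gene was not called (log2 -0.33 ± 0.21, edgeR adjusted p = 0.161). FGFR2 (chromosome 14, 131183095 to 131285001) had 6.46, 6.29, 4.17, 4.81 and 10.3 CPM in testis replicates 1 to 5 and 33.0, 63.8, 35.8, 60.8 and 29.1 in epididymis replicates 1 to 5. The groups did not overlap, and the epididymis mean was 6.95 times higher (log2 -2.77 ± 0.32, edgeR adjusted p = 9.5e-06).

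Per kb of counted gene length, FGFR1 was 5.85 to 14.5 times as high as FGFR2 in the testis libraries and 1.25 to 2.91 times as high in the epididymis libraries. Both receptors bind FGFs, but gene counts do not resolve their splice forms, which set ligand choice. FGFR3 and FGFR4, the other kinase receptors of the family, were added after values were seen. FGFR3 had 4.50 ± 1.55 CPM per kb in epididymis, against 0.505 ± 0.0753 in testis (log2 -3.13 ± 0.26, edgeR adjusted p = 6.8e-07). FGFR4 overlapped, at 0.757 ± 0.715 against 0.746 ± 0.161 CPM per kb (edgeR adjusted p = 0.968). FGFRL1, a receptor without a kinase domain, had 28.1 ± 12.3 CPM per kb in epididymis and 10.4 ± 3.49 in testis (log2 -1.42 ± 0.38, edgeR adjusted p = 0.00504). It stood at 9.15 CPM per kb in epididymis replicate 3, inside the testis range.

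**Figure D3:**
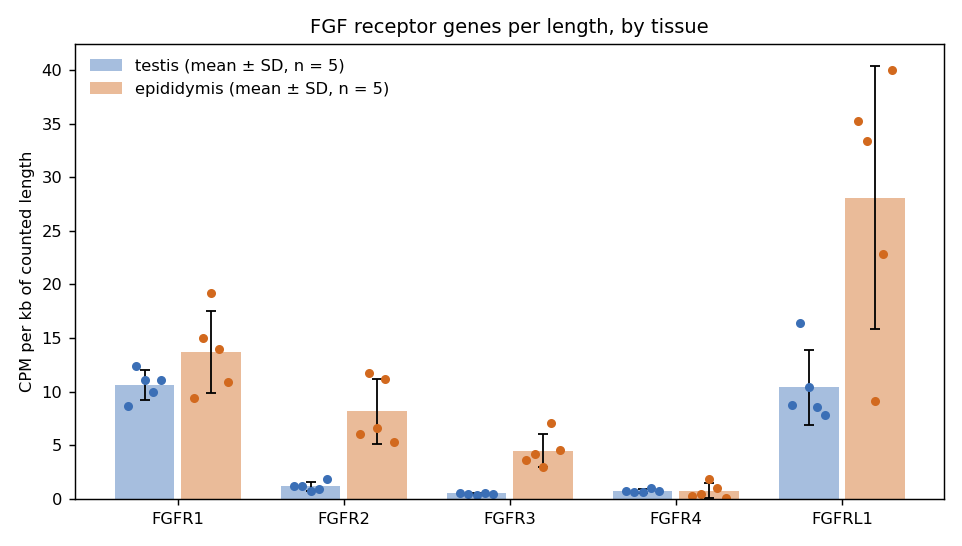
CPM per kb of counted length for the FGF receptor genes in testis (blue) and epididymis (orange), with bars for the mean, error bars for the SD and points for the 5 libraries. FGFR1 overlaps between the tissues, whereas all epididymis libraries lie above all testis libraries for FGFR2 and FGFR3.

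Of the 4 genes induced by ERK, ETV4 and DUSP6 were higher in epididymis beyond 2-fold. ETV4 (chromosome 12, 19531507 to 19548303) had 8.40, 6.42, 7.36, 4.86 and 6.77 CPM in testis replicates 1 to 5 and 71.1, 106, 22.0, 29.5 and 7.25 in epididymis replicates 1 to 5. Epididymis replicate 5 lay within the testis range, and the other 4 lay above it. The mean was 6.97 times higher in epididymis (47.2 ± 40.6 against 6.76 ± 1.30 CPM), with a log2 fold change of -2.80 ± 0.60 (edgeR adjusted p = 0.00115).

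DUSP6 (chromosome 5, 93303058 to 93307510) had 9.38, 10, 7.77, 8.60 and 9.20 CPM in testis replicates 1 to 5 and 53.2, 42.9, 28.9, 100 and 18.4 in epididymis replicates 1 to 5. The groups did not overlap. Epididymis replicate 5 was again the lowest of its tissue. The mean was 5.42 times higher in epididymis, with a log2 fold change of -2.39 ± 0.38 (edgeR adjusted p = 1.1e-04).

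The Sprouty genes were called with smaller differences that did not hold with the boar as a block. SPRY2 (chromosome 11, 52153695 to 52158766) had 7.33, 9.40, 5.41, 13.2 and 12.2 CPM in testis replicates 1 to 5 and 12.5, 14.2, 43.1, 23.5 and 8.96 in epididymis replicates 1 to 5. The groups overlapped, and epididymis replicate 3 was the highest. The log2 fold change was -1.07 ± 0.40 (edgeR adjusted p = 0.0300), or -0.89 with the block (edgeR adjusted p = 0.0966). The call was also lost without epididymis replicate 3 (log2 -0.63) or testis replicate 1 (-0.92), 2 (-1.06) or 3 (-0.86), with edgeR adjusted p-values of 0.0569 to 0.0922, and without epididymis replicates 3 and 4 (log2 -0.38, edgeR adjusted p = 0.276).

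SPRY4 (chromosome 2, 143877334 to 143891280) had 5.28, 6.85, 6.99, 5.34 and 5.54 CPM in testis replicates 1 to 5 and 15.6, 12.7, 7.48, 15.2 and 5.34 in epididymis replicates 1 to 5. Here replicate 5 lay within the testis range and replicate 3 just above it. The log2 fold change was -0.88 ± 0.31 (edgeR adjusted p = 0.0218), or -0.78 with the block (edgeR adjusted p = 0.0621). The call was lost without testis replicate 1 (log2 -0.78) or 5 (-0.82) or epididymis replicate 1 (-0.71), with edgeR adjusted p-values of 0.0552 to 0.0653. When testis replicate 4 alone stood for the testis, PTPN6 and FGFR2 kept their calls and ROS1, ETV4, DUSP6, SPRY2 and SPRY4 lost theirs, where 11.4% of all genes were called higher in epididymis and 23.4% in testis.

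Per kb of counted length, the order of the median levels differed between the tissues. In testis FGFR1 lay above the others in every library, at 8.65 to 12.4 CPM per kb. SPRY2, DUSP6, PTPN6, ETV4 and NELL2 followed with medians of 3.79, 3.18, 2.79, 2.33 and 1.97 CPM per kb, and neighbours in this order overlapped. In epididymis the highest medians were those of PTPN6 with 22.4, DUSP6 with 14.8, FGFR1 with 14.0 and ETV4 with 10.2 CPM per kb, again with overlapping libraries. The lowest medians in epididymis were those of NELL2 with 1.40, ROS1 with 0.488 and OVCH2 with 0.0899 CPM per kb, although OVCH2 reached 1141 and ROS1 57.6 CPM per kb in replicate 3.

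Across the 5 epididymis libraries, which the labels do not divide further, the genes did not move as 1 block. Replicate 3 had the highest level of 4 of the 10 (ROS1, OVCH2, SPRY2 and FGFR1), where 31.9% of all tested genes were highest in that library. It had the lowest level of NELL2 and PTPN6. Replicate 5 had the lowest level of 5 of them (ETV4, DUSP6, SPRY2, SPRY4 and FGFR2), where 23.9% of all tested genes were lowest. ETV4 and FGFR2 were highest in replicate 2, NELL2 and DUSP6 in replicate 4, and PTPN6 and SPRY4 in replicate 1. Of the 4 ERK-induced genes among the 10, only SPRY2 was highest in the same library as ROS1, replicate 3. Of 13 other ERK targets and feedback inhibitors, 7 were highest in replicate 3 too, against 31.9% of all tested genes. That library, with 529 CPM of ROS1, had 22.0 CPM of ETV4, 28.9 of DUSP6 and 43.1 of SPRY2, and replicate 2, with 1.37 CPM of ROS1, had 106 CPM of ETV4. With 5 libraries, no correlation was computed.

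**Figure D4:**
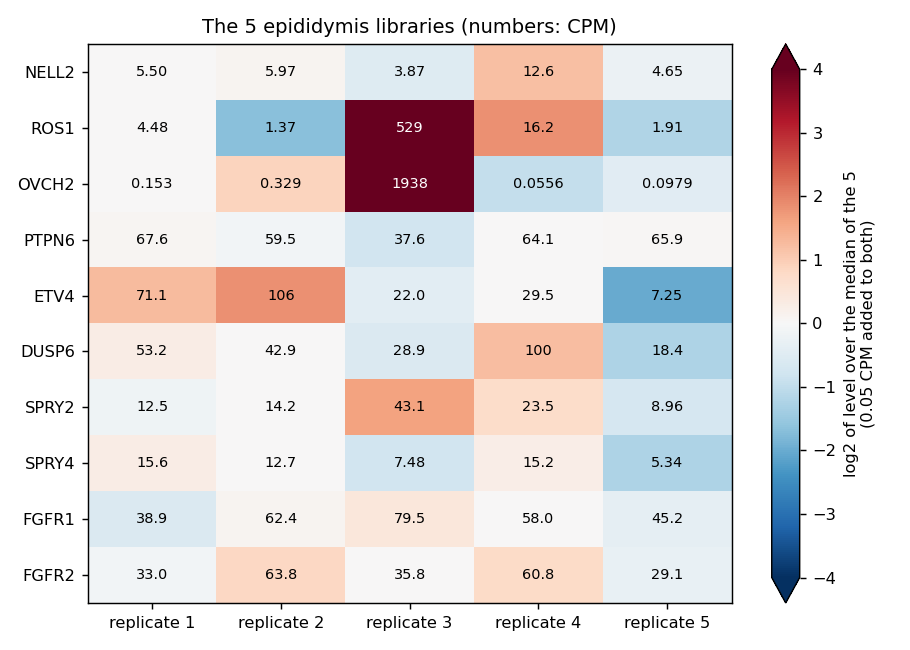
Levels of the 10 genes in the 5 epididymis libraries, with CPM printed in each cell and colour for the log2 of the level over the median of the 5 (0.05 CPM added to both). Replicate 3 is dark red for ROS1 and OVCH2 and pale blue for ETV4, DUSP6, SPRY4 and PTPN6, and replicate 5 is blue for the 4 ERK-induced genes.

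Among the 9912 genes with at least 10 CPM in epididymis replicate 3, OVCH2 had the highest ratio to the next epididymis library. ROS1, 32.7-fold above the next library, ranked 77. SPRY2 was 1.83-fold above the next library and FGFR1 1.28-fold. By abundance in that library OVCH2 ranked 33 and ROS1 217 of 21381 genes with reads. PTPN6 reached 0.556 times the highest other epididymis library, DUSP6 0.288 times and ETV4 0.207 times.

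**Figure D5:**
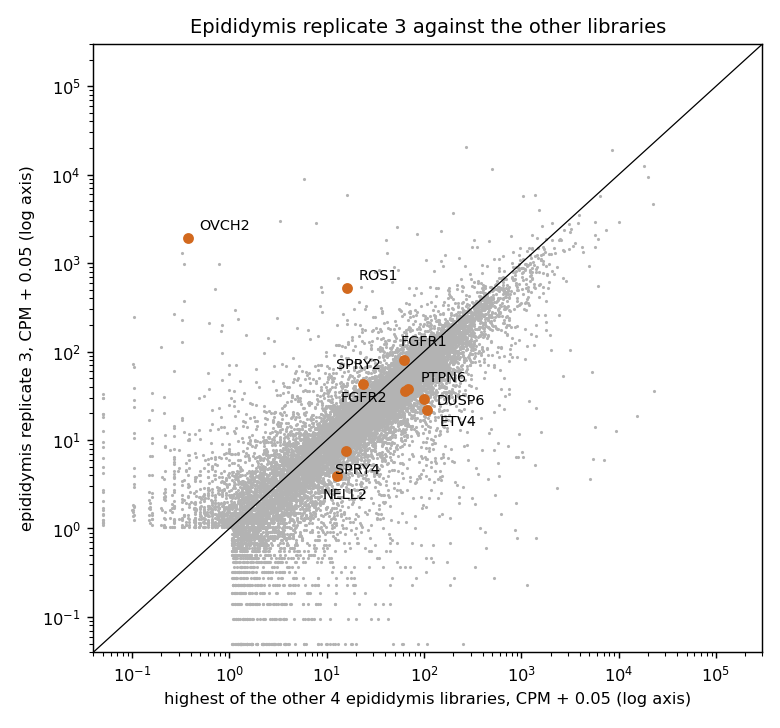
CPM + 0.05 of each gene in epididymis replicate 3 (vertical) against the highest of the other 4 epididymis libraries (horizontal), on log axes, for genes with at least 1 CPM in either, and the line of equality. OVCH2 and ROS1 lie far above the line at 1938 and 529 CPM, and ETV4 and DUSP6 lie below it.

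Of 12 genes listed for the initial segment and the head of the epididymis, 8 had a row. Of these, 5 were, like ROS1 and OVCH2, highest in epididymis replicate 3, and SRD5A1 was lowest there. The sum over all 8 was 8498 CPM in epididymis replicate 3, 144 to 642 in the other epididymis libraries and 362 to 1016 in testis. No gene of the list was at 0 in every library of a tissue. The testis sum was nearly all SRD5A1, a steroid reductase with 359 to 1012 CPM there. In epididymis replicates 1 to 5 SRD5A1 had 43.7, 27.3, 19.0, 52.2 and 45.0 CPM. RNASE10, a secreted protein of the ribonuclease A family, had 12.4, 11.8, 5909, 16.0 and 6.12 CPM in epididymis replicates 1 to 5. SRD5A2, another steroid reductase, had 164, 88.5, 1240, 110 and 26.2 CPM. LCN9, LCN10 and CST11, named after their values were seen, were also highest in replicate 3, at 23.7, 607 and 599 CPM, so 5 of the 8 peaked there.

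The list was not uniform. CST11 had 382 CPM in replicate 4 too, against at most 2.35 in replicates 1, 2 and 5. The lipocalin gene LCN8 and the opioid precursor gene PENK, also named after their values were seen, were not highest in replicate 3: LCN8 had 68.5 CPM there against 35.5 to 72.6 in the others, and PENK 30.6 against 8.47 to 45.0. Between the tissues 5 of the 7 tested were higher in epididymis, SRD5A1 was higher in testis and LCN9 was not called. The part of the piece of duct that was sampled in the level of ROS1 and OVCH2 was not tested.

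Profiles most like those of the axis genes were ranked by the root-mean-square difference of log2 CPM over the 10 libraries, each gene centred on its own mean. Only genes with a symbol that passed the filter on low counts were compared. For ROS1 the closest were PDZK1 (1.23), RNASE10 (1.32) and TMEM213 (1.55), where the median over the 13816 genes compared was 4.10. PDZK1, a scaffold protein of transporters, had 31.8, 9.96, 917, 155 and 1.71 CPM in epididymis replicates 1 to 5. TMEM213 had 211 CPM in replicate 3 and 10.3 to 38.7 in the others.

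For OVCH2 the closest were SLC1A1 (1.49), TEDDM1 (1.66) and GALP (1.92), against a median of 4.04. OVCH2 itself did not pass the filter, and genes that failed it in the same way were not compared. SLC1A1, a glutamate transporter, had 983 CPM in replicate 3 and 0.356 to 0.734 in the other epididymis libraries, and TEDDM1, an epididymal membrane protein, had 8947 against 2.28 to 5.73. For NELL2 they were METTL22 (0.21), ZNF454 (0.26) and UNKL (0.27), against a median of 1.03. All 3 shared the highest epididymis level in replicate 4, such as METTL22 with 41.0 CPM there and 14.5 to 27.7 in the others. The ranking used these same libraries, so a shared peak is part of what it selects, for ROS1 and OVCH2 as well.

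Other partners of the axis went both ways between the tissues. NICOL1, a cofactor of NELL2, was not analysed here. Of 8 others tested, 4 were called higher in testis and 3 in epididymis. The sperm proteins ADAM3A and ADAM2 had 253 ± 136 and 77.5 ± 35.8 CPM in testis against 2.29 ± 2.61 (6.66 in epididymis replicate 3) and 0.415 ± 0.276 in epididymis (log2 6.82 ± 0.76 and 7.55 ± 0.49, edgeR adjusted p = 7.5e-06 and 1.2e-07). The log2 fold change of ADAM3A was 7.74 without epididymis replicate 3. Testis replicate 4 was the highest for both, with 495 and 140 CPM. ADAM28, a protease of the epididymal epithelium, had 347, 226, 1537, 348 and 238 CPM in epididymis replicates 1 to 5 and 4.35 to 7.96 in testis (log2 -6.53 ± 0.62, edgeR adjusted p = 2.1e-06; -5.68 without epididymis replicate 3). PTPN11, the SHP-2 phosphatase that relays receptor signals, had 101 ± 37.7 CPM in epididymis and 27.3 ± 12.4 in testis (log2 -1.86 ± 0.33, edgeR adjusted p = 2.8e-04), and testis replicate 4 alone, at 49.3 CPM, lay above the lowest epididymis library.

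Of 8 other FGF receptor and adaptor genes tested, 5 were called higher in epididymis and 2 in testis, with a median log2 fold change of -1.84. The 2 in testis were the docking proteins that couple FGF receptors to ERK. FRS2 had 56.7 ± 14.0 CPM in testis against 9.47 ± 5.25 in epididymis (log2 2.61 ± 0.39, edgeR adjusted p = 8.0e-05), and FRS3 28.7 ± 3.96 against 2.67 ± 1.45 (log2 3.44 ± 0.36, edgeR adjusted p = 4.2e-06). KLB, the co-receptor of hormone-like FGFs, had 2.50 ± 0.611 CPM in epididymis and 0.238 ± 0.0634 in testis, and the proteoglycan GPC1 46.6 ± 16.4 against 9.64 ± 1.39.

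Other ERK targets and feedback inhibitors went both ways. Of 13 tested, 6 were called higher in testis and 5 in epididymis, with a median log2 fold change of 0.05, or 0.73 without epididymis replicate 3. DUSP4, a nuclear ERK phosphatase, had 150 ± 34.3 CPM in testis against 12.3 ± 7.64 in epididymis (log2 3.65 ± 0.36, edgeR adjusted p = 2.6e-06), the opposite direction to DUSP6. ETV5, the close relative of ETV4, had 124 ± 30.1 CPM in testis against 74.2 ± 30.3 in epididymis (log2 0.78 ± 0.28, edgeR adjusted p = 0.0254). That call was lost without testis replicate 2 (log2 0.73) or epididymis replicate 2 (0.67) or 5 (0.63), with edgeR adjusted p-values of 0.0502 to 0.0632. Within the epididymis ETV5 was highest in replicate 3, at 119 CPM, where ETV4 was at 22.0. EGR1, an immediate-early transcription factor, had 221, 806, 143, 380 and 149 CPM in epididymis replicates 1 to 5 and 12.0 to 42.2 in testis, and like ETV4 it was highest in replicate 2.

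In the ERK cascade itself, 7 of 15 genes were called higher in epididymis and 4 in testis, with a median log2 fold change of -0.68. The kinase gene BRAF had 217 ± 12.0 CPM in testis against 36.7 ± 8.91 in epididymis (log2 2.60 ± 0.19, edgeR adjusted p = 2.3e-07). GAB1, a docking protein, had 125 ± 66.0 CPM in epididymis and 17.8 ± 0.860 in testis (log2 -2.77 ± 0.31, edgeR adjusted p = 7.6e-06), and was highest in replicate 3 with 212 CPM. MAP2K2, which encodes MEK2, had 222 ± 7.73 CPM in testis against 123 ± 14.7 in epididymis (log2 0.87 ± 0.15, edgeR adjusted p = 2.6e-04). ARAF was not called (477 ± 189 CPM in epididymis, 289 ± 116 in testis, edgeR adjusted p = 0.0996), but it was called higher in epididymis without epididymis replicate 3 (log2 -0.91, edgeR adjusted p = 0.0164), without testis replicate 2 (-0.94, edgeR adjusted p = 0.0344) and without epididymis replicates 3 and 4 (-0.94, edgeR adjusted p = 0.0234).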

How the data were processed

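RNA of 5 testis and 5 epididymis libraries was sequenced as short reads; 2 long-read pools were not analysed here. The authors deposited unnormalized whole-number counts for each gene together with its length, per the file headers. Per the submitters' processing notes the tools were cutadapt 3.0, STAR and featureCounts of Subread, with build Sscrofa11.1; the annotation release and the handling of strand and multi-mapping reads are not stated there. Per the labels' protocols, poly(A) RNA was enriched and the cDNA amplified by PCR, so floors cover counting error only.

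CPM was computed over the column total, and CPM per kb by the deposited length. Coordinates and symbols are from RefSeq's Sscrofa11.1 table and a table of gene names, which gave 810 of 15226 Ensembl-named rows a symbol. The tissue test used edgeR 4.0.16 in R 4.3.3 (filterByExpr, TMM, robust quasi-likelihood fit, tissue as the only term, 17225 genes, Benjamini-Hochberg adjustment), and glmTreat tested a change beyond 2-fold. SEs are approximate: the unshrunk log2 fold change over the square root of F. The fit was tested on simulated data. Alternatives were DESeq2 1.42.0, its size factors, no composition factors, no filter, a block for the boar, other totals, and libraries left out. No 2 libraries were identical (chi-square per degree of freedom at least 10.3 within testis and 78.9 within epididymis, over genes with at least 20 reads in a pair). The block rests on the animal number in the file headers; deviations from the tissue mean correlated at 0.01 to 0.08 across genes for the same boar and at -0.09 to 0.10 for different boars.

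The genes and lists were chosen with earlier results of these data known. Named besides the 10: per list, the 3 most abundant and the 2 with the largest fold past the 2-fold test, and the 3 nearest profiles of NELL2, ROS1 and OVCH2; genes outside this rule are marked as named after their values were seen. A gene that this rule names is not reported here.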

Additional observations from a re-analysis of the deposited data

Results flagged for a closer look

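In 14 of 70 sets of 5 libraries of a tissue, for the 10 genes and the pathway genes named with them, 1 library lay far from the other 4 by Dixon's ratio on CPM (above 0.71). Chance flags about 1 in 20 such sets if values are normally distributed, which CPM need not be, and genes that share a library are not independent. The share flagged over all genes is not given here, so 14 of 70 is not read as an excess.

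Epididymis replicate 3 was the far library in 8 of the 14. It was high for ROS1 (529 CPM), OVCH2 (1938), RNASE10 (5909), SRD5A2 (1240), ADAM28 (1537), FGF12 (51.1) and FGF17 (9.94), and low for PTPN6 (37.6). Its haploid germ cell markers, all 8 of which were highest in that library, summed to 527 CPM against 27.2 to 80.7 in the other epididymis libraries; their part in these values was not tested. Epididymis replicate 4 was high for NELL2 (12.6 CPM) and FGF14 (13.0). Testis replicate 4, the testis library with few small structural RNAs, was high for ADAM3A (495 CPM), ADAM2 (140), PTPN11 (49.3) and DUSP4 (210).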

How the results depend on the processing

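The limits of these results are the 5 libraries of a tissue, 1 library that carries most of ROS1 and OVCH2, and RNA content that differs among testis libraries. Small structural RNAs were high in testis replicates 1, 2, 3 and 5, but low in every epididymis library and in testis replicate 4. When that library alone stood for the testis, the log2 fold change was -14.00 for ROS1, -3.18 for ETV4, -2.38 for DUSP6, -0.50 for SPRY2 and -0.97 for SPRY4, none of them called (edgeR adjusted p = 0.0982 to 0.651; the ROS1 value is set against 0 testis reads, depends on the prior count and is no bound), and 2 genes were called higher in epididymis, 2 of them beyond 2-fold, against 7 and 5. That fit takes its spread from the epididymis libraries alone, so the lone sample is assumed to vary like them, and it tested 18896 genes. There 15 of the 48 other named genes with a call lost it. Vascular VWF and Sertoli AMH changed direction there (log2 -0.72 and -0.01, neither called). The replicate block lost the calls of SPRY2 (log2 -0.89) and SPRY4 (-0.78) and changed no other call of the 10 genes. Without epididymis replicates 3 and 4, NELL2 was called higher in testis (0.64), the 1 gene so called, SPRY2 lost its call (-0.38), and FGF12 changed direction (0.56), uncalled. Leaving out single libraries gave log2 0.29 to 0.76 for NELL2, -1.27 to -0.63 for SPRY2, -1.07 to -0.71 for SPRY4, -0.98 to 0.37 for FGF12 (0.37 without epididymis replicate 3) and 0 to 1 gene called higher in testis. No cause of these changes was tested. DESeq2 size factors, no composition factors, no filter and the DESeq2 test changed no call of the 9 genes tested, except that DESeq2 gave ROS1 no p-value. Over these settings the median log2 fold change of all genes was -0.10 to 0.31, against -0.07. Other totals moved no mean level of the 10 genes by 1 SD.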

Other observations

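Of 23 FGF ligand genes listed, 20 had a row and 11 were tested: 6 were called higher in epididymis and 2 in testis, with a median log2 fold change of -1.42. FGF19, a hormone-like FGF, had 193 reads in testis (1.79 ± 0.726 CPM) and 0 in epididymis, at least 58.6-fold higher against 3 reads over the whole tissue. FGF14, of the FGFs that stay inside the cell, had 22.2 ± 5.83 CPM in testis against 3.98 ± 5.14 in epididymis (log2 2.54 ± 0.66, edgeR adjusted p = 0.00406). Its highest epididymis level, 13.0 CPM, was that of replicate 4, the others had 0.684 to 3.26, and without replicate 4 the log2 fold change was 3.64. FGF17 had 1.78, 0.383, 9.94, 1.72 and 0.637 CPM in epididymis replicates 1 to 5 and 0 to 0.509 in testis (log2 -3.82 ± 1.10, edgeR adjusted p = 0.00705), and its epididymis mean of 2.89 CPM was 1.13 without replicate 3, where the gene did not pass the filter. Without testis replicate 3 its log2 fold change was -4.50. FGF21, a metabolic hormone, had 7.31 ± 2.08 CPM in epididymis and 2.69 ± 0.291 in testis (log2 -1.42 ± 0.27, edgeR adjusted p = 4.4e-04). FGF12, also of the intracellular kind, was not called, at 51.1 CPM in epididymis replicate 3 but 2.90 to 10.7 in the other epididymis libraries.

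Within the epididymis, 10 of the 20 ligand genes were highest in replicate 3, where 31.9% of all tested genes were. The 2 shares are not alike, because only 11 of the 20 ligand genes were tested. Some of the 10 were near the floor in replicate 3, such as FGF5 at 0.137, FGF6 at 0.182 and FGF16 at 0.274 CPM.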
